A study of Homo sapiens with 6 samples.

Results

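The proto-oncogene SKI and 9 genes of the transforming growth factor beta (TGF-beta) SMAD pathway were followed in Rh30 cells with and without knockdown of the RNA helicase DDX5. The other members were SKIL, SMAD2, SMAD3, SMAD4, SMAD7, TGFBR1, TGFBR2, TGFB1 and TGFBI. They were taken by name, as 10 of the 35580 genes with a transcript in the deposited tables, and all 10 were among the 15223 genes tested. The set was chosen by the fold changes between these same siDDX5 and control libraries: it was drawn up around SKI, already known to be lower after the knockdown. The values of the members are therefore given as a description without a p-value, and tests are reported for genes outside the set.

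Rh30 is an established alveolar rhabdomyosarcoma line, and both groups carry its PAX3-FOXO1 fusion. The groups were 3 libraries labelled control and 3 labelled siDDX5, numbered 1 to 3 as biological replicates. All 6 come from this 1 line, and neither the sequence of the siDDX5 reagent nor the kind of control is given in the sources used here. No added TGF-beta or other agent is named in the labels.

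TGF-beta ligands bind a type II receptor, which phosphorylates a type I receptor. The type I receptor phosphorylates SMAD2 and SMAD3, which join SMAD4, enter the nucleus and change transcription. SKI and its relative SKIL bind these SMAD complexes and bring corepressors to them, whereas SMAD7 is induced by the pathway and acts back on the receptors. In muscle and muscle-derived tumours TGF-beta signalling is known for restraining myogenic differentiation, and SKI is known for promoting muscle growth.

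The libraries held 18202402 to 26156858 estimated counts, and the deepest siDDX5 library (19971888) held fewer than the shallowest control library (21265569). A count of 3, the floor used here, corresponded to 0.115 to 0.165 CPM, that is counts scaled to a common library total. DDX5 itself was at 1352, 1434 and 1137 CPM in control replicates 1, 2 and 3 and at 549, 504 and 396 CPM in the siDDX5 replicates, so the groups did not overlap and the labels were borne out in each library. Its log2 fold change was -1.44 (SE 0.15, n = 3 per group; adjusted p = 0.0106 in the edgeR quasi-likelihood test, 1.35e-16 to 0.0955 over the alternatives). Rhabdomyosarcoma markers summed to 1153 to 1529 TPM (counts scaled also by effective transcript length), with MYOD1, MYOG and DES all present. Of the 10 on that list 1, TFAP2B, was at 0. Epithelial markers summed to 2.97 to 4.71 TPM, with KRT19 at 0, and endothelial markers to 4.71 to 7.44 TPM. Fibroblast markers summed to 93.7 to 118.9 TPM in the control and 105.5 to 124.3 TPM in the siDDX5 libraries, mostly THY1, with LUM and PDGFRA not passing the filter on low counts. Blood markers summed to 17.3 to 20.2 TPM in the control and 11.1 to 13.1 TPM in the siDDX5 libraries. They were mostly CD68, and CD3E and SPI1 stayed under 1 TPM in every library. The part of that difference, and of depth, in the results below was not tested.

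SKI was lower in every siDDX5 library, by the same proportion in each numbered pair. In edgeR on counts, with group alone in the fit, SMAD2, SMAD3 and SMAD4, which carry the signal, differed by less than their standard errors. The SKI gene lies at chr1:2228695-2310119 on the plus strand (GRCh38). In replicates 1, 2 and 3, the order used throughout, SKI stood at 53.4, 53.7 and 48.0 CPM in control libraries against 27.2, 27.2 and 24.4 CPM after knockdown. All 3 siDDX5 libraries lay below all 3 control libraries, and within each group replicate 3 was lowest. The means were 51.7 ± 3.2 CPM in control and 26.3 ± 1.59 CPM in siDDX5 (SD, n = 3 each), which is 1.97-fold lower on the fitted scale. The log2 fold change was -0.98 with an SE of 0.11, and the log2 ratio was -0.98 in each of the 3 numbered pairs. Fewer cells with SKI RNA and less SKI RNA per cell cannot be told apart in such bulk samples.

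Of the 10 members, 1 (SKI) passed an adjusted p of 0.05, against 25 of 15223 genes (0.164%). With the replicate number as a block, 2 of the 10 (SKI and SMAD7) passed, against 394 genes (2.59%). The groups did not overlap for 2 of the 10 (SKI and TGFBR1), against 18% of all genes. These shares are background and nothing is read from them, because SKI was known to differ when the members were chosen.

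**Figure D1:**
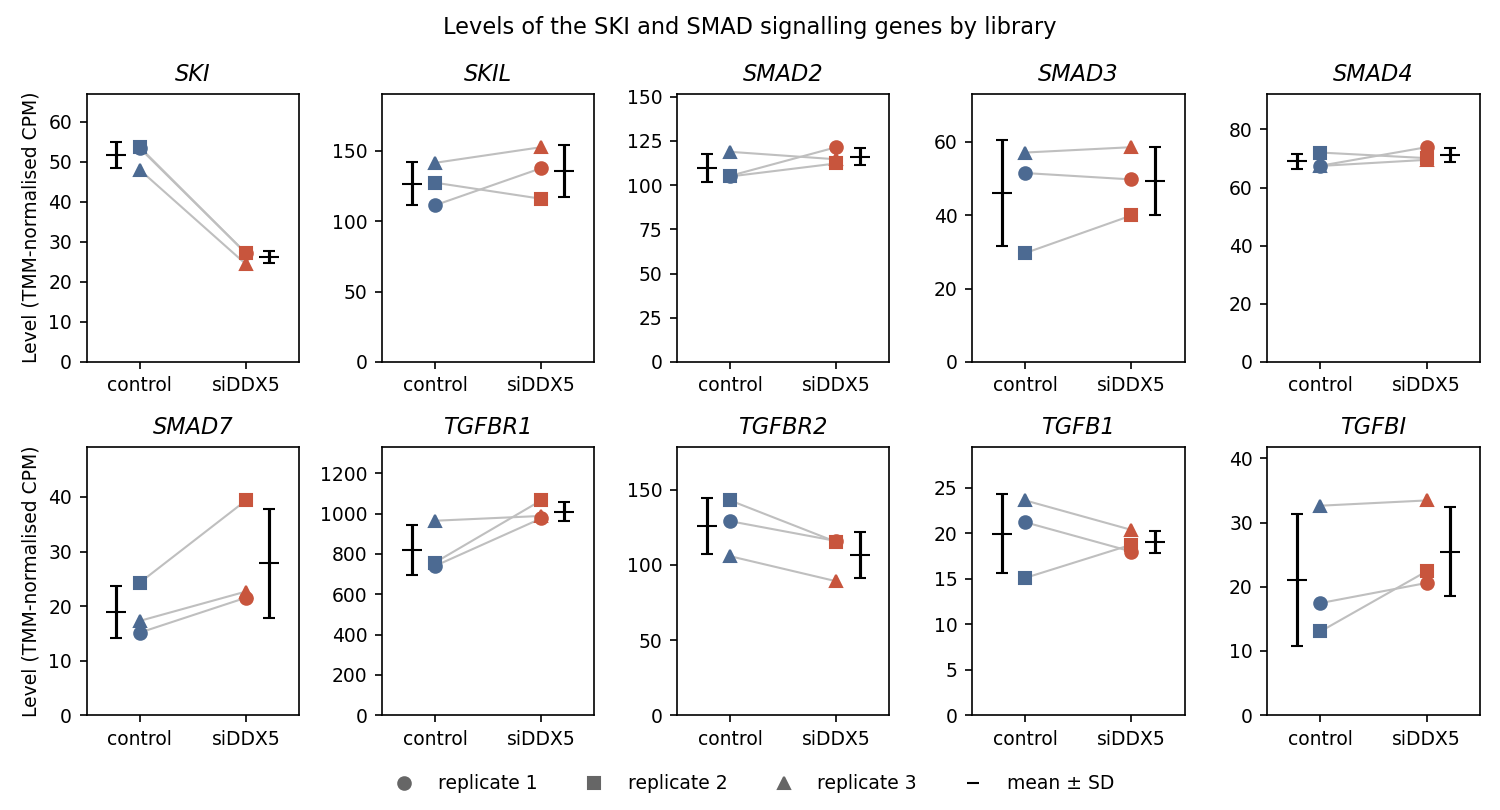
Level of each of the 10 genes in TMM-normalised CPM (vertical axes, each from 0) in the control and siDDX5 libraries. Points are libraries, shaped by replicate number and joined by grey lines, and the black marks beside them are the mean ± SD of 3 libraries. SKI falls from between 48.0 and 53.7 to between 24.4 and 27.2 CPM, while most other panels overlap.

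The SKI value depends on which transcripts are read. The tables hold 4 SKI transcripts. The protein-coding one, ENST00000378536.5 (6083 bases), held 96.8% to 99.1% of the gene's estimated counts, with 1358, 1149 and 1141 in control libraries against 537, 489 and 430 after knockdown. Its TPM was 10.6, 10.96 and 9.85 in control libraries against 5.72, 4.96 and 4.94 after knockdown, again with no overlap. The other 3 transcripts are non-coding and 252, 294 and 539 bases long.

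Those short transcripts held 10.8 to 22.6 estimated counts per library in all. Yet they made up a mean of 46.1% of the summed SKI TPM in the control and 69% in the siDDX5 libraries. TPM divides by effective length rather than by the full length in bases. Their summed TPM was 8.35, 6.02 and 14.1 in control libraries against 10.2, 11.7 and 13.3 after knockdown. TPM summed over all 4 transcripts was 19.0, 17.0 and 24.0 in the control and 15.9, 16.7 and 18.2 in the siDDX5 libraries, so on that scale the groups overlapped and the log2 ratio of the means was -0.24. Over transcripts of at least 1000 bases it was -1.01. That length limit was chosen after the values were seen.

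**Figure D2:**
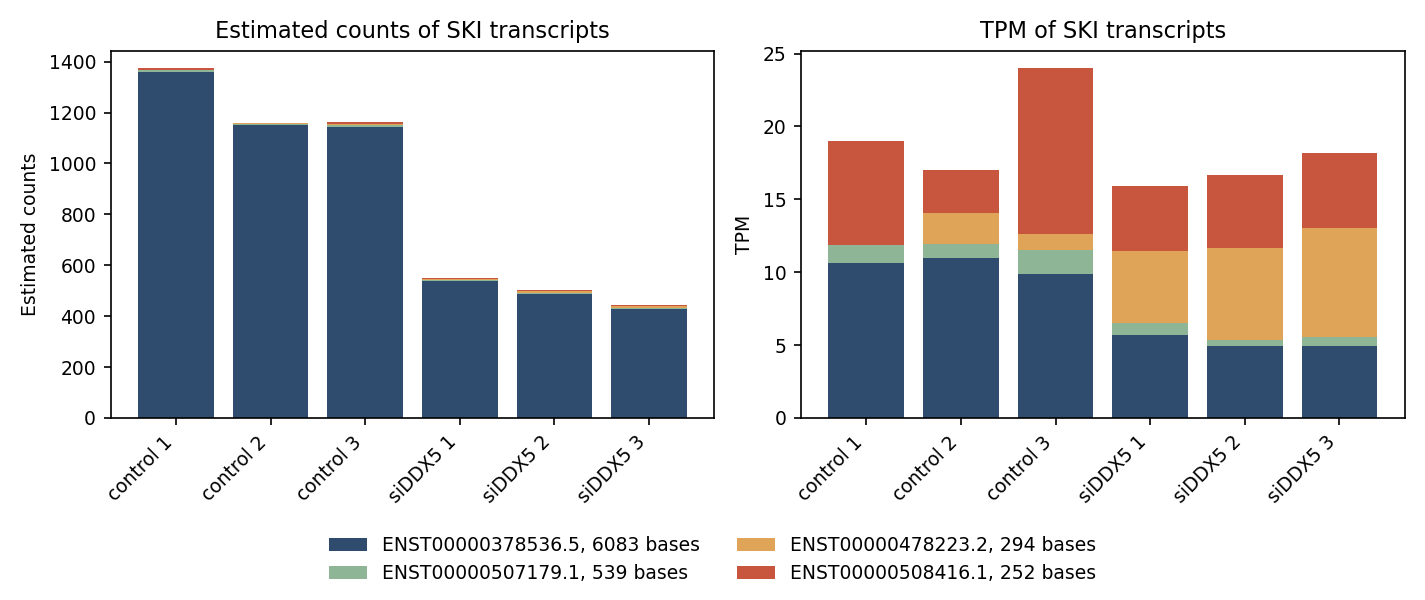
Stacked bars of the 4 SKI transcripts in each library, as estimated counts (left) and as TPM (right). The 6083-base transcript fills nearly all of the counts and drops to 537 or fewer after knockdown, while on the TPM scale the 252-base and 294-base transcripts, with at most 10.04 counts each, make up much of every bar.

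The same limit was used to compare levels between members, per length. In the control libraries TGFBR1 was highest, at 333 ± 60.1 TPM over transcripts of at least 1000 bases (SD, n = 3, as for the means that follow). SKIL followed at 49.7 ± 5.06 TPM and TGFBR2 at 43.2 ± 5.92 TPM, and these last 2 overlapped. SMAD2 at 33.2 ± 2.03 TPM lay below every TGFBR2 library, and SMAD4 at 23.3 ± 2.26 TPM below every SMAD2 library. TGFBI at 16.8 ± 7.94 TPM overlapped SMAD4. SMAD3 (11.2 ± 3.41 TPM), SKI (10.48 ± 0.569 TPM), SMAD7 (9.35 ± 2.72 TPM) and TGFB1 (8.21 ± 2.00 TPM) overlapped one another.

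In the siDDX5 libraries SKI was the lowest of the 10, at 5.21 ± 0.444 TPM, below every library of the next lowest, TGFB1, which was at 7.91 ± 0.792 TPM. SKIL, the closest relative of SKI, was at 48.4 ± 10.53 TPM there.

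A 29-base window of the SKI 3′ UTR is shown because it holds a 7-base word, GACGCCA, that had earlier been seen in these data in the 3′ UTRs of genes that fell with DDX5 knockdown. CTDSP2, a pathway gene described below, is printed beside it because it was the 1 other pathway gene with both the word and a call. The capitals mark the word. Both lines were read from the GENCODE 29 transcripts for GRCh38, 5′ to 3′ along the transcript. The SKI window is chr1:2307134-2307162, plus strand, in exon 7 of 7, and its word starts 380 bases after the stop codon. The CTDSP2 window is chr12:57819999-57820027, minus strand, in exon 8 of 8, 3586 bases after the stop codon. GENCODE 29 holds SKI as ENST00000378536.4 with 5613 bases, a shorter version than the one in the deposited tables.
SKI: ccccaacacatGACGCCAtctgaagaccc
CTDSP2: ttgaaatgcagGACGCCAttaagtgtctg

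The word was looked for on the transcript strand only, in the 3′ UTR of 1 coding transcript for each of 13482 tested genes, and 265 genes (1.97%) held it. Of the 10 members SKI alone held it, and the 3′ UTRs searched for the other 9, from 331 bases (SKIL) to 8731 bases (SMAD2), did not. SKIL was searched in ENST00000259119.8, an older version than the ENST00000259119.9 (7155 bases) of the deposited tables. SMAD3 and TGFBI were also searched in older versions. Bases outside the 3′ UTRs searched were not examined, so the absence of the word holds for those versions only. Among the 265 genes, 8 were called lower and 0 higher with edgeR. With the replicate block, 48 (18.1%) were called lower and 0 higher. Among the 13217 genes without the word, 8 were called lower and 8 higher, and with the block 169 (1.28%) in each direction.

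The 8 called genes with the word were SKI, CTDSP2, GRB2, ZNRF2, OPN3, ARCN1, GNAI2 and RRBP1. The median log2 fold change was -0.18 for the genes with the word and 0.01 for those without it, and 74.3% against 48.7% of them lay below 0. The 3′ UTRs with the word were also longer, with a median of 2579 against 1096 bases. As the word was first seen in genes that had fallen in these libraries, these counts are a description and no independent support. Whether the word is related to the siDDX5 reagent was not tested, since the sequence of that reagent is not given in the sources used here. Nor was the part of 3′ UTR length tested.

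**Figure D3:**
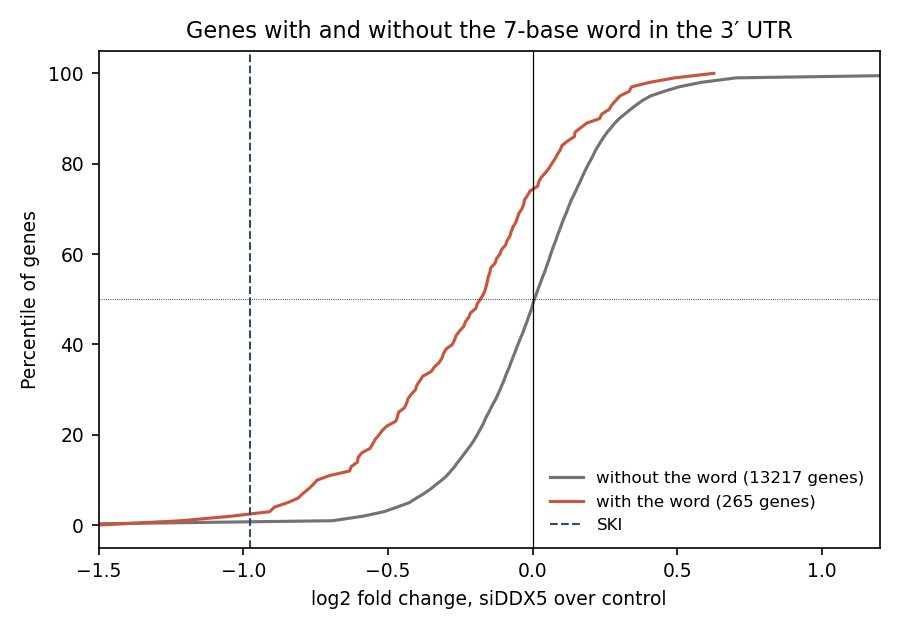
Percentile of genes (vertical axis) against log2 fold change, siDDX5 over control (horizontal axis), for 265 genes with the 7-base word in the 3′ UTR and 13217 without it, with SKI as a dashed line. The curve of genes with the word lies to the left, crossing the 50th percentile at -0.18 rather than 0.01.

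The ligand TGFB1 (chr19:41301587-41353911, minus strand) encodes TGF-beta 1. It stood at 21.2, 15.1 and 23.6 CPM in control libraries against 17.98, 18.7 and 20.4 CPM after knockdown. The siDDX5 values lay inside the control range, and the log2 fold change was -0.07 (SE 0.17).

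TGFBR1 (chr9:99104038-99154192, plus strand) encodes the type I receptor, the kinase that phosphorylates SMAD2 and SMAD3. It was at 740, 757 and 965 CPM in control libraries against 976, 1066 and 989 CPM after knockdown. Every siDDX5 library lay above every control library, though control replicate 3 came close to siDDX5 replicate 1. The log2 fold change was 0.30 (SE 0.13), and the pair ratios were 0.40, 0.49 and 0.04. Per length the groups overlapped, at 300, 296 and 402 TPM against 396, 331 and 347 TPM over transcripts of at least 1000 bases, a log2 ratio of 0.10. One coding transcript, ENST00000552516.5, held 66.0% to 74.4% of the counts in every library. ENST00000374994.9 held 14.4%, 14.9% and 13.7% in control libraries against 14.3%, 23.1% and 20.3% after knockdown, so siDDX5 replicate 1 was like the controls and the other 2 were higher.

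TGFBR2 (chr3:30606502-30694142, plus strand) encodes the type II receptor, which binds ligand first. Its level was 129, 143 and 106 CPM in control libraries against 116, 115 and 89.1 CPM after knockdown. Every numbered pair was lower with siDDX5, by log2 ratios of -0.16, -0.31 and -0.25, but the groups overlapped because control replicate 3 was low. The log2 fold change was -0.24 (SE 0.15), -0.13 without control replicate 2 and -0.11 without siDDX5 replicate 3. Its 2 transcripts shared the counts almost equally, with ENST00000295754.9 at 44.4% to 52.6%.

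The receptor-regulated SMAD2 (chr18:47808957-47931146, minus strand) was at 105, 105 and 119 CPM in control libraries against 121, 112 and 115 CPM after knockdown. The log2 fold change was 0.08 (SE 0.10). Of its transcripts, ENST00000402690.6 (12075 bases) held 9.58%, 5.00% and 9.23% of the counts in control libraries and 12.7%, 11.7% and 17.3% in the siDDX5 replicates, without overlap, while the most abundant, ENST00000356825.8, held 35.3% to 41.5%. SMAD3 (chr15:67063763-67195195, plus strand), the other receptor-regulated SMAD, was at 51.5, 29.7 and 57.1 CPM in control libraries against 49.8, 40.0 and 58.6 CPM after knockdown. Replicate 2 was lowest in both groups, and the log2 fold change of 0.10 (SE 0.23) became -0.13 without control replicate 2 and -0.03 without siDDX5 replicate 3.

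SMAD4 (chr18:51028394-51085045, plus strand), the partner that both of these need in the nucleus, had the fold change closest to 0 of the 10. It was at 67.5, 72.0 and 67.4 CPM in control libraries against 73.9, 70.1 and 69.5 CPM after knockdown, with a log2 fold change of 0.05 (SE 0.10). Its main coding transcript, ENST00000398417.6, held 36.4%, 42.0% and 34.9% of the counts in control libraries and 47.5%, 41.2% and 52.9% in the siDDX5 replicates, so the groups overlapped. As for SKI, short transcripts weighed on the summed TPM of SMAD4, with a mean of 67.9% of it in the control and 60.7% in the siDDX5 libraries.

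SMAD7 (chr18:48919853-48952052, minus strand) is the inhibitory SMAD and a direct target of the pathway. Its level was 15.1, 24.3 and 17.3 CPM in control libraries against 21.5, 39.4 and 22.7 CPM after knockdown. Each siDDX5 library was above its numbered control, by log2 ratios of 0.51, 0.70 and 0.39, but control replicate 2 lay above siDDX5 replicates 1 and 3. The log2 fold change was 0.56 (SE 0.25), and 0.54 (SE 0.11) with the replicate block. Replicate 2 was high in both groups, and the log2 fold change became 0.23 without siDDX5 replicate 2 and 0.79 without control replicate 2. The protein-coding ENST00000262158.7 held 40.6% to 54.4% of the counts and the retained-intron transcript ENST00000545051.2 held 34.2% to 54.2%, with no separation of the groups.

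SKIL (chr3:170357678-170396835, plus strand) encodes SnoN, which like SKI represses SMAD complexes and is itself induced by TGF-beta. It was at 111, 127 and 142 CPM in control libraries against 138, 116 and 153 CPM after knockdown. The groups overlapped, pairs 1 and 3 were higher and pair 2 lower with siDDX5, and the log2 fold change was 0.10 (SE 0.13). A pair of coding transcripts held most of its counts and traded shares between libraries of the same group. ENST00000259119.9 held 27.2%, 54.5% and 48.2% in control libraries against 43.1%, 47.9% and 35.1% after knockdown. ENST00000458537.7 held 51.0%, 25.6% and 34.2% in control libraries against 36.9%, 43.4% and 55.1% after knockdown.

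TGFBI (chr5:136028895-136063818, plus strand), a secreted matrix protein named for its induction by TGF-beta, was at 17.5, 13.05 and 32.6 CPM in control libraries against 20.6, 22.4 and 33.4 CPM after knockdown. Replicate 3 was highest in both groups, and its 2 libraries were nearly equal. The log2 fold change was 0.27 (SE 0.31), smaller than its error, and ran from 0.03 without control replicate 2 to 0.74 without control replicate 3. A transcript marked for nonsense-mediated decay, ENST00000507018.5, held 18.5%, 10.46% and 1.45% of the counts in control libraries and 0%, 0% and 3.31% in the siDDX5 replicates, so control replicate 3 lay within the range of the siDDX5 libraries.

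On the scale of summed TPM the small differences of SKIL, SMAD2, SMAD3 and SMAD4 turned below 0. Their limma-trend log2 fold changes were -0.13 (SE 0.18), -0.16 (SE 0.13), -0.10 (SE 0.26) and -0.31 (SE 0.17) for log2(TPM + 1). Over transcripts of at least 1000 bases the log2 ratios of these 4 were -0.04, -0.06, 0.02 and -0.04. No direction is therefore given for them. SKI and TGFBR2 stayed below 0 and SMAD7, TGFBR1 and TGFBI above 0 on all 3 scales. TGFB1 was below 0 on these scales but in CPM turned to 0.07 without control replicate 3 and 0.02 without both replicate 3 libraries.

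SMAD7 and SKIL are both known targets of SMAD3 and SMAD4, which bind the letters CAGAC and its reverse complement GTCTG, and their promoters are printed to show where those letters fall. Each is the 250 bases before a start of the gene from RefSeq, GRCh38.p14, 5′ to 3′ along the gene, with CAGAC and GTCTG in capitals. SMAD7 had 3 such windows, of which 2 held the letters, and the 1 printed holds them at 2 positions. SKIL had 1 window. The SMAD7 window is chr18:48950966-48951215, minus strand, and the letters begin at -217 and -128 from the start. The SKIL window is chr3:170357465-170357714, plus strand, with the letters at -107.
SMAD7: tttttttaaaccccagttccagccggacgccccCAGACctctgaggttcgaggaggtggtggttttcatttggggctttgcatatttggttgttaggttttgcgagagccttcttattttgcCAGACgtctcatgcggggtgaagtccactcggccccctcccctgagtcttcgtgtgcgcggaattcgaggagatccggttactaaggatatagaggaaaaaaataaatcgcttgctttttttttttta
SKIL: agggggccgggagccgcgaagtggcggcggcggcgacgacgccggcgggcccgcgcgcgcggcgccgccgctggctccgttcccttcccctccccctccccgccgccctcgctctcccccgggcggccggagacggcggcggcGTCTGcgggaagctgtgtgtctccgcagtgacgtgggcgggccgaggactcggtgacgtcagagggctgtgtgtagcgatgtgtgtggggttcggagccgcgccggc

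The letters are common. Of 35116 such windows, 38% held CAGAC on either strand, as did 37.5% of the 24 windows of the 9 members found in the RefSeq table and 40.5% of 42 windows of SMAD-responsive genes. A match is a run of letters and not a binding site.

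Among genes that TGF-beta or activin induce through SMAD2, SMAD3 and SMAD4, 1 or 2 passed the adjusted threshold, without and with the replicate block, and both were higher while SKI was lower. The list held 40 such genes, none of them a member, and 38 were tested. With edgeR 1 was called higher (HMGA2) and 0 lower, against 25 of 15223 genes (0.164%). The call of HMGA2 was known when the list was written, so it is no independent support. Before adjustment, 3 were higher and 0 lower at a p under 0.05, or 7.89% against 11.4% of all genes. With the block the unadjusted counts were 13 higher and 2 lower, or 39.5% against 20.5% of all genes. Of the 38, 28 had a log2 fold change above 0 and 10 below, or 73.7% above 0 against 49.6% of all genes tested, and their median was 0.11 against -0.00 for all genes. The groups did not overlap for 4 of the 38, or 10.5%, which is below the 18% of all genes. These 4 were all higher with siDDX5 (HMGA2, SPARC, GADD45B and NUAK1). With the block 2 were called higher (HMGA2 and SPARC) and 0 lower, or 5.26% against 2.59% of all genes. These 2 include HMGA2, known beforehand, so nothing is read from that share.

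Library by library, the median of the 38 genes, each centred on its own mean log2 CPM, was 0.11, -0.28 and -0.03 in control replicates 1, 2 and 3 and 0.03, 0.08 and 0.09 in the siDDX5 replicates. Control replicate 1 was the highest of the 6 and control replicate 2 the lowest, so the groups overlapped. SKI centred in the same way was at 0.54, 0.54 and 0.38 in the control and -0.44, -0.44 and -0.59 in the siDDX5 replicates, with a wide gap between groups. Without control replicate 2 the median log2 fold change of the list was 0.04, and over all 6 fits that left out 1 library it was 0.04 to 0.19.

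HMGA2, an architectural chromatin protein that SMADs induce in epithelial cells, was at 35.1, 42.5 and 35.2 CPM in control libraries against 70.6, 88.2 and 64.2 CPM after knockdown. Every siDDX5 library was above every control library. Its log2 fold change was 0.98 (SE 0.14; adjusted p = 0.0422 with edgeR, 5.72e-07 to 0.29 over the alternatives), and the call was lost in each of the 6 fits that left out 1 library. Its call was known when the list was written.

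SPARC, a matricellular protein that binds collagen, was at 704, 536 and 557 CPM in control libraries against 938, 969 and 999.7 CPM after knockdown, again without overlap. Its log2 fold change was 0.69 (SE 0.13; adjusted p = 0.0711 with edgeR, 6.09e-05 to 0.443 over the alternatives, 0.0175 with the replicate block). GADD45B, a stress-response protein, was at 37.7, 38.8 and 38.2 CPM in control libraries against 42.0, 78.7 and 44.9 CPM after knockdown, so siDDX5 replicate 2 stood far above the others, and its adjusted p was 0.396 with edgeR (0.14 to 0.696 over the alternatives).

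At the other end of the list no gene passed. IL11, a cytokine, was at 27.8, 12.95 and 31.6 CPM in control libraries against 16.9, 12.6 and 22.7 CPM after knockdown (log2 fold change -0.47, SE 0.31). FSTL3, a secreted binder of activin, had a log2 fold change of -0.30 (SE 0.18) and was the 1 gene of 37 examined on the list whose 3′ UTR held the GACGCCA word. FN1, the matrix protein fibronectin, had a log2 fold change of -0.23 (SE 0.39), which ran from -0.78 to 0.25 with 1 library left out and was above 0 without control replicate 1 or siDDX5 replicate 3.

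**Figure D4:**
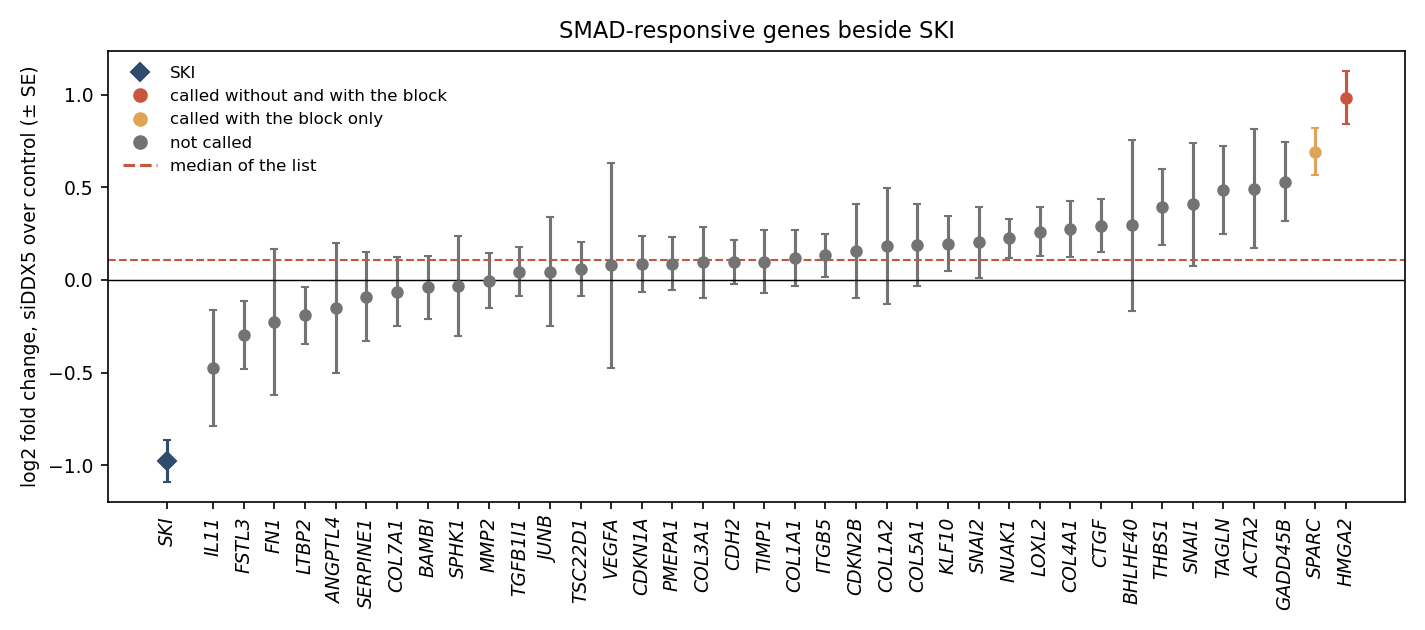
Log2 fold change, siDDX5 over control, with its SE (vertical axis) for SKI at the left and the 38 tested SMAD-responsive genes in rising order, coloured by call. SKI is at -0.98, the list runs from -0.47 (IL11) to 0.98 (HMGA2), and its median is 0.11 (dashed line).

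The rest of the pathway was read from 7 lists by role, with 95 genes of which 80 were tested. With edgeR 1 was called lower (CTDSP2) and 0 higher, against 25 of 15223 genes (0.164%). The call of CTDSP2 was known when the list was written, so nothing is read from the shares called. Before adjustment, 8 were higher and 8 lower at a p under 0.05, or 20% against 11.4% of all genes, and with the block 13 higher and 12 lower, or 31.2% against 20.5%. With the replicate block 4 were called higher (INHBE, ACVR2B, ITGB8 and TGIF1) and 3 lower, among them CTDSP2 and HIPK2, which is 8.75% against 2.59% of all genes. The median log2 fold change over the 80 was -0.01, and the groups did not overlap for 10 genes in each direction, or 25% against 18% of all genes.

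The 14 tested partners through which SKI represses or which compete with it, such as corepressors and acetyltransferases, had a median log2 fold change of -0.04, with 7 above 0 and 7 below. None was called with edgeR, where an unadjusted p under 0.05 was reached by 2 higher and 4 lower genes, or 42.9% against 11.4% of all genes. The block gave 1 higher and 2 lower calls, or 21.4% against 2.59%. HIPK2, a nuclear kinase that works with corepressors, was at 184, 132 and 178 CPM in control libraries against 134, 107 and 101.1 CPM after knockdown, so the groups overlapped. It had a log2 fold change of -0.53 (SE 0.16; adjusted p = 0.25 with edgeR, 0.0444 with the block).

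TGIF1, a homeodomain corepressor of SMADs, was the highest of these partners, at 38.1, 48.0 and 51.9 CPM in control libraries against 53.9, 66.7 and 65.8 CPM after knockdown. The groups did not overlap, and its log2 fold change was 0.43 (SE 0.14; adjusted p = 0.294 with edgeR, 0.0325 to 0.643 over the alternatives, 0.0325 with the block). The 3′ UTRs of none of the 14 examined partners held the GACGCCA word.

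Of 15 genes for SMAD and receptor turnover, CTDSP2 alone was called with edgeR, against 0.164% of all genes. The other 14 lay between log2 fold changes of -0.10 and 0.24. CTDSP2 is a small phosphatase that removes phosphate from the linker of SMADs. It was at 2282, 1887 and 2061 CPM in control libraries against 958, 851 and 955 CPM after knockdown, so it was abundant and the groups were far apart. Its log2 fold change was -1.17 (SE 0.12; adjusted p = 0.0106 with edgeR, 9.41e-18 to 0.0955 over the alternatives), and the call was lost without control replicate 1, without siDDX5 replicate 1 and without siDDX5 replicate 3. Its call, too, was known when the list was written. USP15, a deubiquitinase of receptor-regulated SMADs, was highest there at 0.24 (SE 0.11) and did not pass.

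Of the 9 tested ligands other than TGFB1, 8 lay above 0, or 88.9% against 49.6% of all genes, with a median of 0.33. Several of these 8 lay above 0 by less than their SE. None was called with edgeR, where an unadjusted p under 0.05 was reached by 2 higher and 0 lower genes, or 22.2% against 11.4%. Of these 2, the gene with the larger fold change averaged only 0.525 CPM in the control and 1.15 CPM in the siDDX5 libraries. TGFB2, the ligand TGF-beta 2, was at 63.8, 26.4 and 48.1 CPM in control libraries against 80.7, 55.0 and 65.2 CPM after knockdown, overlapping, with a log2 fold change of 0.54 (SE 0.27; adjusted p = 0.495 with edgeR, 0.0529 to 0.838 over the alternatives). GDF11, a ligand of activin receptors, was lowest at -0.18 (SE 0.11). INHBE, an activin subunit, was at 0.49 (SE 0.24; adjusted p = 0.491 with edgeR). It was called with the block, at 0.47 (SE 0.087; adjusted p = 0.0263 in edgeR with the block).

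Of the 10 tested receptors besides the members, 5 lay above 0 and 5 below. An unadjusted p under 0.05 was reached by 2 higher and 1 lower, or 30% against 11.4% of all genes. The groups did not overlap for 4 of them, or 40% against 18%. ACVR2B, a type II receptor for activins and myostatin, was at 46.2, 52.4 and 48.4 CPM in control libraries against 82.4, 66.2 and 79.0 CPM after knockdown. The groups did not overlap, and its log2 fold change was 0.63 (SE 0.12; adjusted p = 0.0733 with edgeR, 4.37e-04 to 0.515 over the alternatives, 0.02 with the block). BMPR1A, a type I receptor for bone morphogenetic proteins, was the lowest at -0.24 (SE 0.11), with an adjusted p of 0.426 in edgeR.

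The remaining 3 lists held no gene called with edgeR without the block. Of 14 genes for latency and extracellular antagonists, an unadjusted p under 0.05 was reached by 1 higher and 2 lower genes. That is 21.4% against 11.4% of all genes. ITGB8, an integrin subunit that activates latent TGF-beta, had a log2 fold change of 0.51 (SE 0.23; adjusted p = 0.439 with edgeR). It was called with the block, at 0.54 (SE 0.11; adjusted p = 0.0398 in edgeR with the block). Without control replicate 2 its log2 fold change was 0.29. CHRD, the bone morphogenetic protein antagonist chordin, was the lowest named there at -0.55 (SE 0.19). Among 10 other SMADs and adaptors, 0 passed an unadjusted p of 0.05, and the ends among those averaging 5 CPM or more were HGS at -0.20 (SE 0.11) and ZFYVE9 (the adaptor SARA) at 0.25 (SE 0.11). Among 8 genes that bone morphogenetic proteins induce through SMAD1 and SMAD5, 1 (ID2) was higher at an unadjusted p under 0.05. That is 12.5% against 11.4% of all genes. ID2 had a log2 fold change of 0.37 (SE 0.16), and the lowest, SMAD6, was at -0.37 (SE 0.20).

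**Figure D5:**
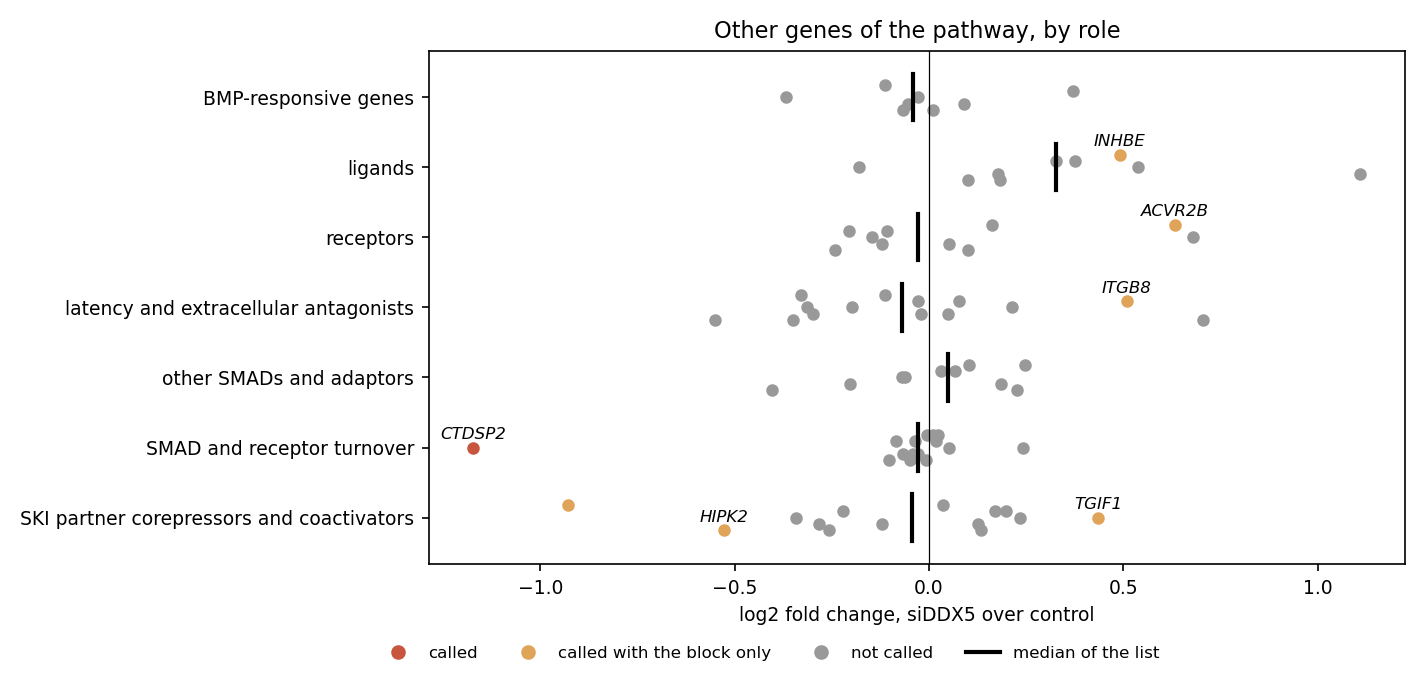
Log2 fold change, siDDX5 over control (horizontal axis), of the 80 tested pathway genes in 7 lists by role, with the median of each list as a black bar. CTDSP2 at -1.17 is the 1 point called without the block, and the ligands have the highest median, 0.33.

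The 5 genes whose pattern over the 6 libraries was nearest to that of SKI were found by the root mean square difference of centred log2 CPM, among the 10994 genes averaging 5 CPM or more. They were ELK3, an ETS-family transcription factor (difference 0.095), PCDHB2, a protocadherin (0.108), IFI44, an interferon-induced protein (0.120), ZNRF2, a ubiquitin ligase (0.120), and GRB2, the adaptor that links receptor kinases to RAS (0.123). None belongs to the SMAD-responsive list or the other pathway lists. ZNRF2 and GRB2 were among the called genes with the GACGCCA word named above. GRB2 was at 165, 164 and 174 CPM in control libraries against 90.4, 90.8 and 95.1 CPM after knockdown, and ELK3 at 101.4, 121.6 and 100.5 CPM in control libraries against 56.1, 61.3 and 47.9 CPM after knockdown. Their log2 fold changes were -0.86 (SE 0.10) and -0.97 (SE 0.13), and, like SKI, neither had any overlap between groups. Likeness to SKI chose these genes, so no test is given for them.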

How the data were processed

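Per the labels' protocols, RNA was extracted with TRIzol and libraries were made with a stranded TruSeq mRNA kit. Per the submitters' processing notes, bcl2fastq 2.20, FastQC 0.11.8, cutadapt 1.11, kallisto 0.46.0 and the builds GRCh38 and hg38 were named. The deposited tables list 188753 transcripts and, per the file headers, hold an estimated count, a TPM value, and the length and effective length in bases. The authors' estimated counts are not normalized, and the authors' TPM values are scaled by effective length. The transcript annotation behind them is not given in the sources used here.

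Transcripts were joined to genes with GENCODE release 29 by identifier (169797), by symbol (15315) or by position (890), and 2751 were left out, so that 99.59% to 99.63% of the counts were joined. All transcripts of the members were joined by identifier. Gene sums of the estimated counts were rounded to whole numbers, filtered with filterByExpr, scaled with TMM and tested in edgeR 4.0.16 (R 4.3.3, glmQLFTest, group only). Calls needed an adjusted p under 0.05 (Benjamini-Hochberg, over all genes tested). The SE is the size of the log2 fold change over the square root of F. SE and SD leave out the uncertainty of dividing reads among transcripts. Centred values used log2(CPM + 0.1). P-values measure the spread among these 3 libraries per group, for which separate cultures are not stated beyond the words biological replicates. The fit was also run on simulated counts with a fixed dispersion, which checks the code and not the calls in these data.

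The replicate numbers are in the titles, and no label says that libraries with 1 number share a culture or day. The deviations of same-numbered libraries from their group means correlated at 0.21, 0.27 and 0.58 over 15223 genes for replicates 1, 2 and 3, so a fit with the number as a block is given where it changed a call.

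The members and lists were chosen with earlier results of these data known. Named were the members, DDX5, called list genes, the 3 highest and 3 lowest of the SMAD-responsive list and the 1 highest and 1 lowest of each other list (averaging 5 CPM or more), and the 5 genes most like SKI. NUAK1, INHBE, HIPK2 and the genes with the 3′ UTR word were named after their values were seen. ACVR2B, ITGB8, TGIF1 and SPARC came under the rule. A pathway gene and a marker gene that are part of the counts are not reported here by name.

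As alternatives, the Wald test of DESeq2 1.42.0 was run, edgeR was scaled with DESeq2 size factors, genes were kept from 1 count upward (no filter) or from a mean of 50 counts, and further fits used limma-trend (limma 3.58.1) on log2(TPM + 1) and log2(TPM + 0.1) for genes averaging 1 TPM or more, the block, identifiers in the primary-assembly annotation alone and each library left out in turn. Leaving out both replicate 3 libraries was added after the data had been seen.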

Additional observations from a re-analysis of the deposited data

How the results depend on the processing

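SKI kept its sign in all 15 alternatives and was called in 7 of them. With 1 library left out, SKI was called only in the fit without control replicate 3. It was not called without both replicate 3 libraries or with limma-trend. Its log2 fold change was -1.03 to -0.92 with 1 library left out, and -0.22 and -0.23 with limma-trend on summed TPM with pseudocounts of 1 and 0.1, where its short transcripts hold much of the TPM. The 25 genes called became 323 under the Wald test of DESeq2, 136 with no filter, 1 and 1 with limma-trend, 0 to 15 with 1 library left out and 4 without both replicate 3 libraries. Of the SMAD-responsive genes, 1 was called in the reported fit, 2 with DESeq2, 2 with no filter, 0 and 0 with limma-trend, 0 to 0 with 1 library left out and 0 without both replicate 3 libraries. At an unadjusted p under 0.05, limma-trend gave 3 for either pseudocount. Of the other pathway genes, the 1 called became 3 with DESeq2, 3 with no filter, 0 and 0 with limma-trend (7 at an unadjusted p under 0.05), 0 to 1 with 1 library left out and 0 without both replicate 3 libraries. The cause of these moves was not tested. The median of the SMAD-responsive list stayed above 0 in every alternative.

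With the replicate block, 394 genes were called, all 25 among them, with 2 SMAD-responsive genes and 7 other pathway genes. Beyond the members and list genes named above, it changed no call of a named gene other than IFI44. No named result reversed while called. The depth of 18202402 to 26156858 counts limits genes near 0.115 to 0.165 CPM, and all members lay far above that.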
